A study of Mus musculus with 8 samples.

Results

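Cathepsins are proteases that break down proteins in lysosomes and in related compartments of the cell. The genes described are the 9 lysosomal cathepsins Ctsa, Ctsb, Ctsc, Ctsd, Ctse, Ctsh, Ctsl, Ctss and Ctsz, chosen by name, and all 9 were found among the 13305 genes of the count table. RNA of whole bone marrow (BM) was sequenced from 8 C57BL/6N mice, with 1 library per mouse. All mice carried Mx1-Cre, had lost 1 copy of Dnmt3a (Dnmt3a+/-) and were homozygous for the internal tandem duplication of the receptor kinase Flt3 (Flt3ITD/ITD), a combination that gives rise to acute myeloid leukemia (AML). They differed in Gab2, which encodes an adaptor protein that passes on signals of Flt3-ITD: 3 AML WT mice were Gab2+/+, 2 AML HET mice Gab2+/- and 3 AML KO mice Gab2-/-. The Flt3 allele is in every cell, and so is the Gab2 knockout allele, which carries a neomycin cassette in place of part of its exons. Cre was expressed spontaneously from the interferon-responsive Mx1 promoter, without injection of an inducer. No mice without AML alleles were part of the sequenced groups, and the age of the sequenced mice is not given in the sources used here.

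Most cathepsins are made as inactive precursors, carried to the lysosome by mannose 6-phosphate receptors and cut into the active form in its acidic interior. They are sorted by the kind of catalytic amino acid in the active site, which is a cysteine in most members, an aspartate in Ctsd and Ctse and a serine in Ctsa. In BM they are best known from phagocytes and antigen-presenting cells, where Ctss trims the invariant chain of MHC class II and Ctsc activates the serine proteases of neutrophil, mast cell and T cell granules. Cathepsin E is held in endosomes and in the membrane of red cells.

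The codon of a catalytic residue of this kind is shown in capitals inside 33 bases of the coding strand for 5 of the genes. The residue is what separates the classes by which the values are ordered. The stretches were read from GENCODE M21 transcripts on GRCm38.
Ctsc (cysteine, chr7:88302300-88308044, plus strand, across an exon junction): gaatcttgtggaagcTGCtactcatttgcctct
Ctsh (cysteine, chr9:90064507-90064539, plus strand, exon 6): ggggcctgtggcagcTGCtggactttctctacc
Ctss (cysteine, chr3:95545333-95545365, plus strand, exon 5): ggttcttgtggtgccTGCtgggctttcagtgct
Ctse (aspartate, chr1:131663356-131663388, plus strand, exon 4): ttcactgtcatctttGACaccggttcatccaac
Ctsa (serine, chr2:164835228-164835260, plus strand, exon 7): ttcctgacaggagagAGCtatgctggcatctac
Of the 6 cysteine cathepsins, 4 use TGC for the catalytic cysteine and 2, Ctsb and Ctsl, use TGT. In the transcript with the longest coding sequence of each gene, no window of 50 bases of Ctse, Ctsc, Ctsh, Ctsl, Ctss or Ctsz occurs in another annotated gene, so that reads within these transcripts can be told apart from those of relatives. Longer transcripts of Ctsl overlap the pseudogene Gm49230 and the antisense gene Gm47123. Of the windows of Ctsd, 36.6% are shared with the gene model Gm49369 on the same strand. For Ctsa and Ctsb these shares were 15.8% and 15.4%, from exons that lie opposite Pltp and Neurl2 and opposite Fdft1, respectively. How strands were treated in counting is not given in the sources used here, and reads of such overlapping genes may be split between them or lost.

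The libraries held 28009258 to 39266815 counts, and the 9 cathepsins together took 0.289% to 0.399% of them. Values of single mice are given as CPM, that is counts scaled to library size, here with edgeR's TMM factors. Gab2 was measured at 93.9, 68.5 and 61.6 CPM in AML WT, 55.8 and 50.8 CPM in AML HET and 35.0, 47.2 and 40.2 CPM in AML KO BM. Its counts were lower in all AML KO than in all AML WT mice and did not fall to 0, and the log2 fold change was −0.87 with a standard error (SE) of 0.1804 (adjusted p = 0.0420, quasi-likelihood test of edgeR, adjusted over all genes by the Benjamini-Hochberg method). With 1 mouse left out the adjusted p of Gab2 ranged from 0.0302 to 0.159 and passed the threshold without AML WT mouse 3 or AML KO mouse 2 only. Nothing in the labels says more about the origin of the mice than their numbers. The p-values weigh differences between genotypes against the spread between these animals. In whole BM, fewer cells of a type and less RNA per cell cannot be told apart.

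To compare levels between genes, CPM were divided by the length of the merged exons of each gene. Ctss had the highest level per length in AML WT BM with 556 ± 78.1 CPM per kb (SD, n = 3), followed by Ctsz with 360 ± 59.1. The ranges of these 2 genes over the AML WT mice did not overlap. Ctsd and Ctsb were next with 172 ± 28.7 and 150 ± 10.6 CPM per kb and overlapped each other. Ctsh followed with 90.2 ± 10.98 CPM per kb, and its range overlapped that of Ctsa, which had 76.5 ± 2.96. Ctsc lay just below Ctsa with 63.9 ± 4.20 CPM per kb, and the ranges of these neighbours did not overlap. At the low end of the order stood Ctsl with 8.29 ± 1.303 and Ctse with 3.79 ± 1.08 CPM per kb, and all AML WT mice had more Ctsl than Ctse. In AML KO BM, Ctse reached 8.49 ± 1.36 and Ctsl 7.51 ± 1.32 CPM per kb, with overlapping ranges. The length used moves some of these levels: with the transcript that has the longest coding sequence, a choice made after seeing the data, Ctsh had 250.9, Ctsc 149 and Ctsl 27.3 CPM per kb in AML WT BM. All AML WT mice then had more Ctsh than any had Ctsb or Ctsd, and more Ctsc than any had Ctsa. In AML KO BM, Ctsl was then at 21.6 to 29.7 and Ctse at 11.01 to 14.9 CPM per kb, so that their ranges did not overlap.

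**Figure D1:**
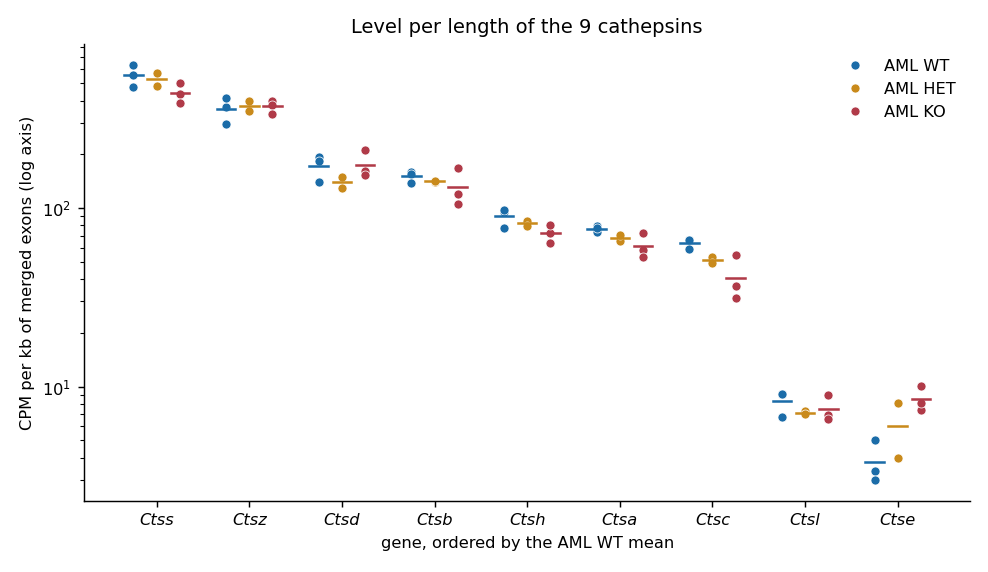
Level per length of each cathepsin, as CPM per kb of merged exons on a log axis, with 1 point per mouse and a line at the mean of AML WT (n = 3), AML HET (n = 2) and AML KO (n = 3) BM. Ctss and Ctsz lead the order in all groups, and Ctse lies below Ctsl in AML WT and overlaps with it in AML KO BM. The order of these 2 genes in AML KO BM depends on the length used. With the transcript of the longest coding sequence all AML KO mice had more Ctsl than Ctse. With the longest transcript all AML KO mice had more Ctse than Ctsl.

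None of the 9 cathepsins passed the threshold of an adjusted p of 0.05 when AML KO was compared with AML WT BM in edgeR, while 278 of 13305 genes (2.09%) did. At an unadjusted p under 0.05 there were 4 cathepsins, Ctsa, Ctsc, Ctse and Ctsh, and 2349 genes in all. With DESeq2, Ctsc and Ctse passed the threshold, as did 730 genes in all (5.49%), and with limma-voom 0 cathepsins and 277 genes (2.08%) did. Estimates of 6 cathepsins were below 0 and those of 3 above 0, with a median log2 fold change of −0.20 against −0.02 over all genes tested. The AML KO and AML WT mice did not overlap in 3 of the 9 cathepsins, against 22.1% of all genes. Of these, Ctsa and Ctsc were lower in all AML KO mice (all genes, 9.83%) and Ctse was higher (all genes, 12.3%).

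**Figure D2:**
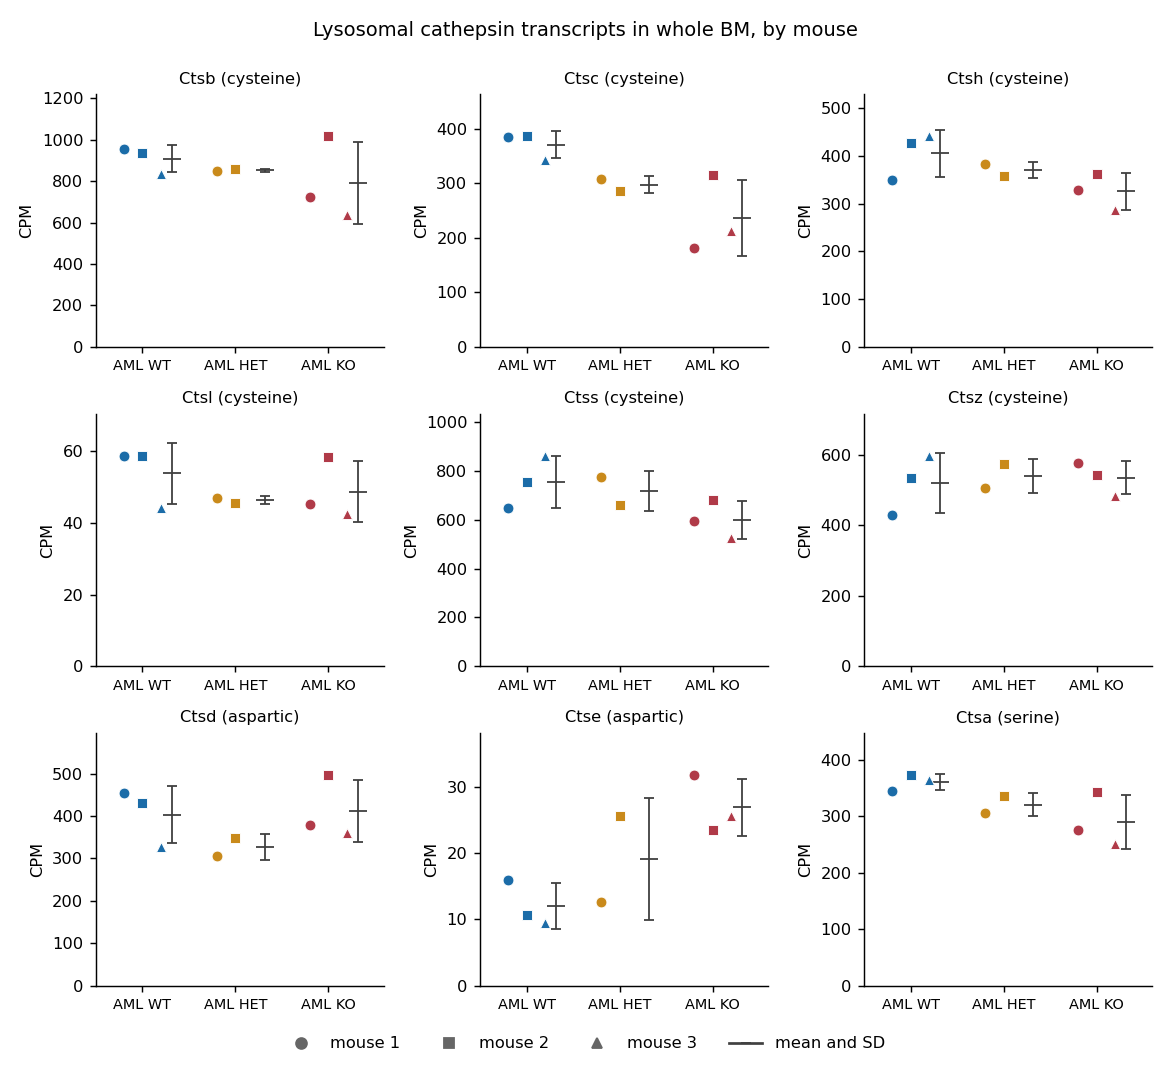
CPM of each cathepsin in the 8 mice, with marker shapes for the mouse numbers and the mean with its SD beside the points of each genotype. All axes start at 0. AML KO mouse 2 lies above the AML WT mean for Ctsb, Ctsd, Ctse, Ctsl and Ctsz and is the highest AML KO mouse for 7 genes.

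Among the cysteine cathepsins, the estimate farthest from 0 was that of Ctsc (ENSMUSG00000030560, chr7:88278085-88310888, plus strand), known as dipeptidyl peptidase 1. Its level was 385, 386 and 343 CPM in AML WT, 309 and 287 CPM in AML HET and 182, 316 and 213 CPM in AML KO BM. The AML HET mice were below all AML WT mice, whereas AML KO mouse 2 was above both AML HET mice. AML KO differed from AML WT BM by a log2 fold change of −0.65 (SE 0.189, adjusted p = 0.146), which puts AML KO BM at 63.8% of the AML WT level with a 95% interval from 47.6% to 85.6%. Without AML KO mouse 2 the log2 fold change was −0.91 with an adjusted p of 0.0157, and in the other fits without 1 mouse the call was not made.

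Ctsh, an aminopeptidase, and Ctss, which works in antigen presentation, had estimates of like size. Ctsh was measured at 349, 427 and 441 CPM in AML WT, 383 and 358 CPM in AML HET and 328, 362 and 286 CPM in AML KO BM. Its ranges in AML KO and AML WT overlapped through AML WT mouse 1, and the log2 fold change was −0.32 (SE 0.137, adjusted p = 0.273). For Ctss the values were 650, 756 and 862 CPM in AML WT, 776 and 659 CPM in AML HET and 594, 680 and 526 CPM in AML KO BM. Again AML WT mouse 1 and AML KO mouse 2 overlapped, and the log2 fold change was −0.33 (SE 0.153, adjusted p = 0.293). The 95% interval of Ctss as AML KO in percent of AML WT reached from 62.6% to 101%.

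Ctsb, a broad lysosomal endo- and exopeptidase, had the highest mean CPM of the cathepsins in each genotype, although AML WT mouse 3 had more Ctss. Ctsb was found at 957, 935 and 836 CPM in AML WT, 848 and 858 CPM in AML HET and 725, 1016 and 638 CPM in AML KO BM. AML KO mouse 2 was thus the highest and AML KO mouse 3 the lowest of all 8 mice, and the log2 fold change was −0.20 (SE 0.174, adjusted p = 0.538). Ctsl, an endopeptidase of lysosomes and thymic epithelium, was measured at 58.7, 58.7 and 44.1 CPM in AML WT, 47.1 and 45.6 CPM in AML HET and 45.2, 58.5 and 42.5 CPM in AML KO BM. The groups overlapped, with a log2 fold change of −0.14 (SE 0.164, adjusted p = 0.639).

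Ctsz, a carboxypeptidase, was spread more between AML WT mice than between genotypes. It had 428, 533 and 596 CPM in AML WT, 506 and 575 CPM in AML HET and 576, 543 and 484 CPM in AML KO BM. All AML KO mice lay within the AML WT range. Its log2 fold change was 0.04 (SE 0.149, adjusted p = 0.894), and AML KO BM was at 103% of AML WT with a 95% interval from 81.7% to 130%.

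The aspartic cathepsins Ctsd and Ctse differed from each other in pattern. Ctsd, the main aspartic protease of lysosomes, had 454, 430 and 327 CPM in AML WT, 306 and 349 CPM in AML HET and 379, 496 and 359 CPM in AML KO BM. AML WT and AML KO mice overlapped throughout, with a log2 fold change of 0.03 (SE 0.170, adjusted p = 0.939). Ctse (ENSMUSG00000004552, chr1:131638306-131675505, plus strand) was measured at 15.9, 10.7 and 9.49 CPM in AML WT, 12.6 and 25.6 CPM in AML HET and 31.7, 23.4 and 25.6 CPM in AML KO BM. All AML KO mice were above all AML WT mice, AML HET mouse 1 lay within the AML WT range and AML HET mouse 2 within the AML KO range. Against AML WT, the log2 fold change of AML KO was 1.16 (SE 0.284, adjusted p = 0.0792), and AML KO BM was at 224% of the AML WT level with a 95% interval from 144% to 348%. With any 1 mouse left out, this log2 fold change was between 1.02 and 1.41. Its adjusted p did not pass the threshold in these fits and reached 0.238. With only the AML KO and AML WT mice fitted, the smallest adjusted p of any cathepsin was 0.0507 in edgeR.

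Ctsa, a serine carboxypeptidase that also shields the lysosomal enzymes Neu1 and Glb1 from degradation, had 345, 373 and 364 CPM in AML WT BM. Its values were 306 and 335 CPM in AML HET and 275, 344 and 251 CPM in AML KO BM. All AML HET and AML KO mice were below all AML WT mice, with AML KO mouse 2 just under AML WT mouse 1. Its log2 fold change in AML KO was −0.31 (SE 0.136, adjusted p = 0.274).

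**Figure D3:**
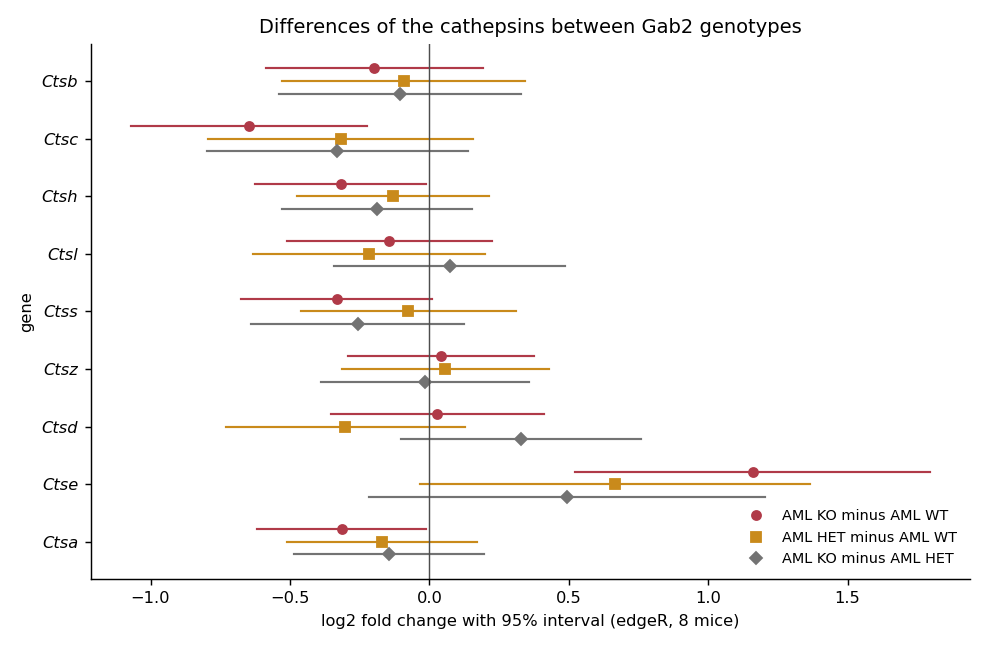
Log2 fold change of each cathepsin with its 95% interval from edgeR for AML KO minus AML WT, AML HET minus AML WT and AML KO minus AML HET. For AML KO minus AML WT the intervals of Ctsa, Ctsc and Ctsh lie below 0 and that of Ctse lies above 0, before adjustment for the number of genes.

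The comparison of AML HET with AML WT BM asked what the loss of 1 Gab2 allele changes, and it shares the AML WT mice with the comparison above. No cathepsin passed the threshold with edgeR, DESeq2 or limma-voom, against 3 of all genes with edgeR (0.0225%), 59 with DESeq2 (0.443%) and 1 with limma-voom (0.00752%). At an unadjusted p under 0.05, edgeR had 0 cathepsins and 329 genes in all. Ctsa and Ctsc were lower in both AML HET than in all AML WT mice, so that 2 of 9 cathepsins did not overlap, against 18.1% of all genes. The log2 fold changes were −0.32 for Ctsc (SE 0.212), −0.17 for Ctsa (SE 0.152) and 0.67 for Ctse (SE 0.311), each with an adjusted p of 0.990. The estimate of Ctse rests on AML HET mouse 2, since it was 0.07 without that mouse and 1.09 without AML HET mouse 1.

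Between AML KO and AML HET BM, which differ in the second Gab2 allele, 0 cathepsins and 0% of all genes passed the threshold with edgeR. With DESeq2 and limma-voom 0 cathepsins passed it as well, against 0.579% and 0% of all genes, and at an unadjusted p under 0.05 edgeR had 0 cathepsins and 780 genes in all. Ctsd alone did not overlap between the groups, being higher in all AML KO than in both AML HET mice, against 24.2% of all genes. Its log2 fold change was 0.33 (SE 0.192, adjusted p = 0.856).

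When the number of functional Gab2 alleles was fitted as a numeric term over the same 8 mice, 2.64% of all genes and 0 cathepsins passed the threshold with edgeR. At an unadjusted p under 0.05 there were 5 cathepsins, the 4 named above and Ctss, and 2689 genes in all. Per functional allele, the log2 level of Ctsc differed by 0.32 (SE 0.0884, adjusted p = 0.0961) and that of Ctse by −0.58 (SE 0.135, adjusted p = 0.0511). The slopes of Ctss, Ctsh and Ctsa were 0.17, 0.16 and 0.16. Those of Ctsd and Ctsz were −0.01 and −0.02. Ctse passed the threshold with limma-voom, which called 351 of all genes (2.64%), and both Ctse and Ctsc with DESeq2, which called 865 (6.5%).

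The AML KO mice differed from each other in the summed level of the 9 cathepsins more than the other groups did. The sum was 3642, 3909 and 3822 CPM in AML WT, 3493 and 3492 CPM in AML HET and 3136, 3839 and 2825 CPM in AML KO BM, so that AML KO mouse 2 lay in the AML WT range. This mouse was the highest of the AML KO mice for 7 of 9 cathepsins, while AML KO mouse 3 was the lowest for 7 of 9. Ctsc varied most within AML KO BM, with a highest value 1.73 times the lowest, followed by Ctsb with 1.59 times. Sums of monocyte and macrophage markers are set beside these values. The summed level of 12 monocyte markers, to which Lyz2 adds most, was 16746, 17074 and 15955 CPM in AML WT, 16028 and 15799 CPM in AML HET and 12715, 17243 and 11123 CPM in AML KO BM. All 12 were detected, 0 passed the threshold between AML KO and AML WT, and all 12 estimates were below 0. The 11 macrophage markers in the table, to which Mrc1 and Adgre1 add most, summed to 401, 328 and 355 CPM in AML WT, 292 and 259 CPM in AML HET and 200.5, 316 and 218 CPM in AML KO BM. All AML HET and AML KO mice were thus below all AML WT mice, and AML KO mouse 2 was again the highest of its group. Within AML WT the order was the reverse of the cathepsin sums, with the highest macrophage sum in mouse 1 and the lowest in mouse 2. In AML KO BM, mouse 1 had the lowest macrophage sum and mouse 3 the lowest cathepsin sum. Of these 11, Vcam1 and Cd5l rose and Mrc1 fell between AML WT and AML KO, and 7 estimates were above 0. The part of monocyte and macrophage content in the cathepsin levels was not tested.

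Over the 8 mice, log2 CPM of the cathepsins varied together in part. Of 36 pairs, 7 had a Pearson r over 0.8, the highest being Ctsh with Ctss (r = 0.96), Ctsa with Ctsc (r = 0.89) and Ctsa with Ctsb (r = 0.86). Ctsl was most like Ctsd (r = 0.84) and Ctsb (r = 0.83). Ctse had a negative r with 6 of the other 8 cathepsins, down to −0.85 with Ctss. These values describe the same libraries, which include the differences between genotypes.

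**Figure D4:**
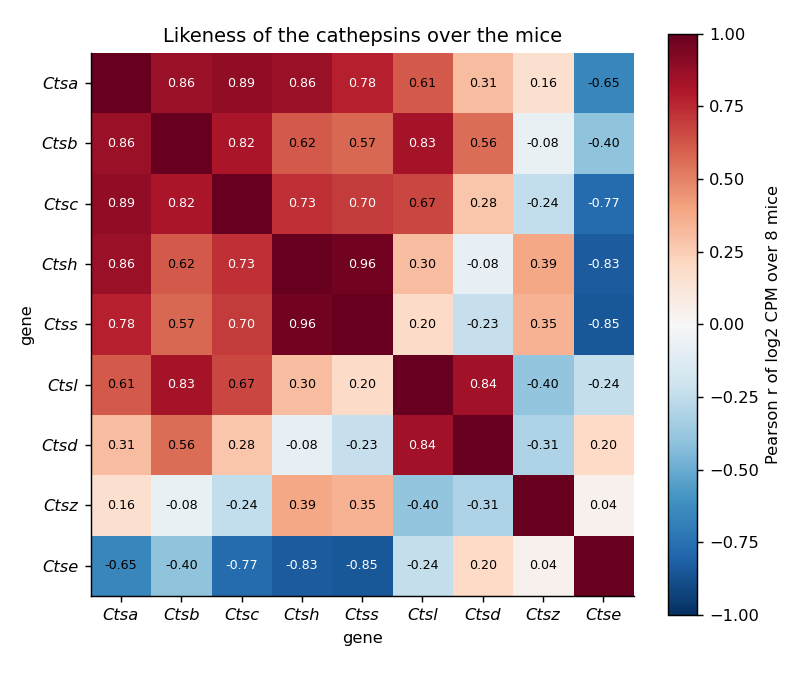
Pearson r between the log2 CPM of the cathepsins over the 8 mice of all genotypes. Ctsa, Ctsb, Ctsc, Ctsh and Ctss form a block of positive values between 0.57 and 0.96, Ctsz stays between −0.40 and 0.39 and Ctse is negative with all 5 genes of the block.

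The genes of the table most like each cathepsin over the 8 mice were found by the same measure. Closest to Ctsc were Tnfrsf11a (r = 0.99), which encodes the receptor RANK, Anxa4 (r = 0.98) and Camk1d (r = 0.98). Ctsh was most like Plbd1 (r = 0.99) and the MHC class II genes H2-Eb1 and H2-Ab1 (both r = 0.97). Ctss was followed by Cd83, a marker of mature dendritic cells, and Aldh1a2 (both r = 0.98), and by H2-Eb1 (r = 0.98). For Ctse the first were CT010467.1 (r = 0.98), Nudcd3 (r = 0.97) and Slc6a9 (r = 0.97), a glycine transporter. Next to Ctsa stood Nfatc2 (r = 0.98), Prdm1 (r = 0.97) and Tuba1a (r = 0.97), and next to Ctsb Sptlc2, Tnfrsf1b (both r = 0.97) and the Fc receptor Fcgr3 (r = 0.96). Ctsd was followed by Npl (r = 0.98), Tnfrsf8 and Thsd4 (both r = 0.97), Ctsl by Fam20c, Exoc6b and Frmd6 (r = 0.95 for each), and Ctsz by Gpr108 (r = 0.99), Znhit3 and Pqlc2 (both r = 0.97). By rank correlation, between 0 and 2 of the first 3 genes were shared with these, with 2 for Ctsh. The number shared was 0 for Ctsc, Ctsd, Ctse, Ctss and Ctsz. Pearson r was over 0.9 with 31 genes for Ctsl and with up to 245 genes for Ctsc, so that the genes named are the first of many.

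Markers of dendritic cells and of red cells are set beside these patterns. The 12 dendritic cell markers, which hold H2-Eb1 and H2-Ab1, summed to 3709, 5929 and 8580 CPM in AML WT, 4705 and 3524 CPM in AML HET and 2888, 3492 and 2150 CPM in AML KO BM. AML WT mouse 1 was the lowest of its group in this sum, as it was for Ctsh and Ctss, and AML KO mouse 3 was the lowest of all. In the comparison of AML KO with AML WT, 1 of the 12, Itgax, passed the threshold and was lower. All 12 estimates were below 0, with a median log2 fold change of −0.98. Of the 12, 6 were lower in all AML KO than in all AML WT mice (all genes, 9.83%). The 11 erythroid markers in the table summed to 318, 353 and 449 CPM in AML WT, 692 and 2203 CPM in AML HET and 5392, 1530 and 2174 CPM in AML KO BM, and 9 of 11 rose in AML KO. AML HET mouse 2 was above AML HET mouse 1 in this sum and in Ctse, and AML KO mouse 1 was the highest mouse in both. Within AML WT the order was the reverse, with the lowest erythroid sum in mouse 1, which had the most Ctse, and the highest in mouse 3, which had the least. The part of these cells in the levels of Ctsh, Ctss and Ctse was not tested.

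Relatives of the cathepsins outside the 9 were described from a list of 14 genes, of which 5 were in the table. Ctsk, the collagen-degrading cathepsin of osteoclasts, fell in AML KO BM. Its values were 72.6, 64.0 and 70.5 CPM in AML WT, 23.8 and 19.0 CPM in AML HET and 10.4, 24.5 and 8.69 CPM in AML KO BM, with both other groups below all AML WT mice. The AML KO mice differed from AML WT by −2.25 on the log2 scale (SE 0.343, adjusted p = 0.0131), and in fits without 1 mouse the call was lost only without AML WT mouse 2 (adjusted p = 0.0628). Of the 11 osteoclast markers 8 were in the table, with Ctsk among them, and their sum was 339 to 394 CPM in AML WT, 273 to 275 CPM in AML HET and 321 to 451 CPM in AML KO BM. Acp5 and Ctsk of this list fell and Mmp9 rose in AML KO, while Dcstamp, Oscar and Calcr were not in the table. Estimates of 6 of the 8 were below 0, with a median log2 fold change of −0.93. Of the 8, 4 were lower in all AML KO than in all AML WT mice (all genes, 9.83%), with Ctsk among them. The 2 with estimates above 0 were Mmp9, which is also in the list of neutrophil markers and averaged 60.4 CPM in AML WT and 131 CPM in AML KO BM, and Itgb3, with 71.3 and 123 CPM (adjusted p = 0.0645). The part of osteoclast content in the level of Ctsk was not tested.

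The other 4 relatives did not pass the threshold. Ctsf, a cysteine cathepsin, had 3.71, 2.75 and 2.05 CPM in AML WT, 2.45 and 3.00 CPM in AML HET and 6.80, 5.64 and 4.60 CPM in AML KO BM. All AML KO mice were above all others, with a log2 fold change against AML WT of 1.00 (SE 0.278, adjusted p = 0.127). Ctsg, the serine protease of neutrophil primary granules, had a log2 fold change of 0.28 (SE 0.157, adjusted p = 0.350). Those of Ctso and Ctsw were −0.17 and 0.43, with adjusted p of 0.658 and 0.424.

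Inhibitors of cysteine cathepsins are small proteins that block the active site, and 9 of the 13 listed were in the table. Of these, 1 rose and 0 fell between AML KO and AML WT, and all 9 estimates were above 0 with a median log2 fold change of 1.00, against −0.02 over all genes. Their summed level, to which Cst3 adds most, overlapped between the groups. It was 1231.5 to 1728.5 CPM in AML WT, 1305 to 1360 CPM in AML HET and 1329 to 1694 CPM in AML KO BM. Ctla2a, an inhibitor related to the cathepsin propeptide, rose from 23.5, 26.2 and 27.0 CPM in AML WT to 67.1, 43.4 and 42.8 CPM in AML KO BM, with 36.7 and 29.7 CPM in AML HET. Its log2 fold change was 1.00 (SE 0.191, adjusted p = 0.0300). Of its 50-base windows, 30.4% occur in other genes, so that its counts are uncertain. For the inhibitors Ctla2b and BC100530 these shares were 86.1% and 48.9%. In fits without 1 mouse the call of Ctla2a was made only without AML KO mouse 2, with adjusted p between 0.0297 and 0.119.

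The fold changes of 3 cystatins were closer to 0. On the log2 scale, that of AML KO over AML WT was 0.02 (SE 0.163, adjusted p = 0.964) for Cst3, which encodes the secreted cystatin C. It was 0.32 (SE 0.185, adjusted p = 0.364) for Cstb, a cystatin of the cytosol, and 0.17 (SE 0.109, adjusted p = 0.414) for Cst7, which acts on Ctsc. The stefin A genes had low levels, with Stfa2l1 at 0.685 to 1.84 CPM in AML WT, 1.34 to 2.00 CPM in AML HET and 2.84 to 12.3 CPM in AML KO BM. Of the 50-base windows of Stfa2l1, 24.6% occur in other genes, so that its counts are uncertain as well. This share was 25.4% for Stfa1 and 0% for Stfa3. The summed level of 12 mature neutrophil markers, 7 of which rose, was 1363 to 4794 CPM in AML WT, 5505 to 6196 CPM in AML HET and 10627 to 17335 CPM in AML KO BM. Its part in the inhibitor levels was not tested.

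Among 11 measured genes that process cathepsins, bind them or are cut by them, Mcpt8 rose in AML KO BM and 0 fell. Mcpt8, a granule protease of basophils, was at 21.1, 28.9 and 28.7 CPM in AML WT, 39.6 and 37.5 CPM in AML HET and 97.1, 40.8 and 59.7 CPM in AML KO BM. Its log2 fold change was 1.33 (SE 0.279, adjusted p = 0.0453), and it did not pass the threshold with limma-voom. In fits without 1 mouse, Mcpt8 passed the threshold only without AML KO mouse 2, with adjusted p between 0.0142 and 0.134. Lgmn, the asparaginyl endopeptidase that cuts cathepsins into 2 chains, had a log2 fold change of −0.24 (SE 0.160, adjusted p = 0.421). For Neu1, the sialidase kept stable by Ctsa, it was 0.34 (SE 0.157, adjusted p = 0.293). Cd74, the invariant chain cut by Ctss, had 1317, 2118 and 2858 CPM in AML WT, 1492 and 1170 CPM in AML HET and 837, 1187 and 692 CPM in AML KO BM. All AML KO mice were below all AML WT mice, with a log2 fold change of −1.21 (SE 0.289, adjusted p = 0.0736). Per functional Gab2 allele the log2 level of Cd74 differed by 0.61 (SE 0.135, adjusted p = 0.0438).

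**Figure D5:**
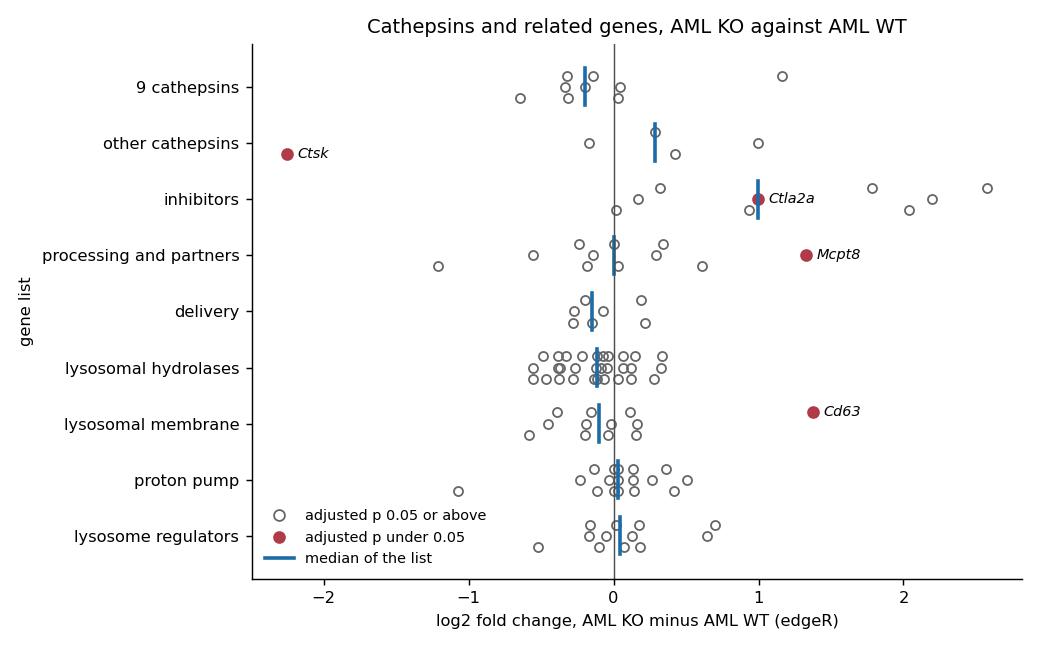
Log2 fold change in AML KO relative to AML WT BM for the 9 cathepsins and of measured genes in 8 related lists, with 1 circle per gene, filled where the adjusted p from edgeR is under 0.05, and a bar at the median of each list. Ctsk, Ctla2a, Mcpt8 and Cd63 are the filled genes, and the medians of the lists of delivery, hydrolases, membrane, proton pump and regulators lie between −0.15 and 0.05.

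The rest of the lysosome was measured with 7 genes of delivery, 30 hydrolases, 12 membrane proteins, 17 subunits of the proton pump and 12 regulators. Between AML KO and AML WT, 0 of the genes of delivery, the hydrolases, the pump and the regulators passed the threshold with edgeR. Of the membrane proteins 1 passed it, Cd63, a tetraspanin that also lines granules of basophils and platelets. It rose from 36.3, 50.9 and 58.6 CPM in AML WT to 159, 115 and 105 CPM in AML KO BM, with 68.4 and 71.1 CPM in AML HET. Its log2 fold change was 1.38 (SE 0.206, adjusted p = 0.0122), and the call was lost only without AML WT mouse 2 (adjusted p = 0.0685). All 11 megakaryocyte and platelet markers rose as well, and their sum was 36.6 to 39.8 CPM in AML WT, 58.8 to 94.4 CPM in AML HET and 234 to 341 CPM in AML KO BM. Of the 9 basophil and mast cell markers 6 were in the table, and 4 of them, with Mcpt8 among them, rose. These 6 summed to 57.4 to 80.8 CPM in AML WT, 106 to 119 CPM in AML HET and 193 to 319 CPM in AML KO BM. The part of these cells in the levels of Cd63 and Mcpt8 was not tested. The median log2 fold change was −0.12 for the hydrolases, of which 21 of 30 were below 0, and 0.03 for the pump, of which 12 of 17 were above 0. It was −0.15 for the genes of delivery.

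Tfeb, Tfe3 and Mitf encode transcription factors that bind the sequence CACGTG in promoters of lysosomal genes. In AML KO against AML WT BM their log2 fold changes were 0.18 (SE 0.151, adjusted p = 0.515), 0.07 (SE 0.135, adjusted p = 0.777) and −0.52 (SE 0.244, adjusted p = 0.298). RefSeq promoters on GRCm38.p6, from 250 bases before to 50 after a start site, were given for 6 of the 9 cathepsins, and CACGTG was searched on both strands, which read the same. It was found in 3 of the 6 genes, Ctsa, Ctsd and Ctsl. Over all 32851 promoters, counted singly and not by gene, the share with the motif was 7.15%. The windows shown have the motif in capitals and are given because they hold the closest matches to the start sites.
Ctsa (chr2:164833749-164833778, plus strand, motif starting at −12 from the start site): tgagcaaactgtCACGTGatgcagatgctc
Ctsa (chr2:164833766-164833795, plus strand, motif starting at 6): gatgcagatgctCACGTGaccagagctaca
Ctsd (chr7:142387908-142387937, minus strand, motif starting at −98): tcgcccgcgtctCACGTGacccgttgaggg
The Ctsa matches lie in the second of its 2 annotated promoters. The windows given for Ctsc, Ctss and Ctsz did not hold the motif. Of the 3 genes with it, Ctsa was lower in all AML KO than in all AML WT mice, while Ctsd and Ctsl overlapped between these groups.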

How the data were processed

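The authors deposited raw counts per gene for 8 BM libraries. The submitters' processing notes name Trimmomatic 0.36, STAR 2.5.2b and mm10; the counter, its strand setting and its annotation are not given in the sources used here. Of 13305 Ensembl identifiers, 13266 were found in GENCODE M21 on GRCm38, which gave symbols and positions.

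The count test was edgeR 4.0.16 under R 4.3.3, with TMM, filterByExpr (0 genes removed) and a robust quasi-likelihood fit of genotype to all 8 mice. Adjusted p-values are Benjamini-Hochberg values over the whole table, with a threshold of 0.05. SEs were derived from the F statistic. Correlations used log2 CPM with a prior count of 2. Alternatives used DESeq2 1.42.0, limma-voom (limma 3.58.1), other scalings and filters, and fits without 1 mouse. The test was checked on simulated data.

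The cathepsins and gene lists were chosen with earlier results of these data known. Named are the 9 cathepsins, preset relatives, listed genes past the threshold between AML KO and AML WT, and the 3 genes most like each cathepsin. Genes such as Stfa2l1, Itgax, Acp5 and Mmp9 were named after their values were seen. Depth was 28009258 to 39266815 counts, at which the spread between mice limits the precision. Sequences were read from GENCODE and RefSeq files. Figures were drawn with matplotlib.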

Additional observations from a re-analysis of the deposited data

How the results depend on the processing

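The count of cathepsins past the threshold between AML KO and AML WT was 0 with edgeR, 2 (Ctsc and Ctse) with DESeq2, and 0 to 1 when 1 mouse was left out, with Ctsc passing without AML KO mouse 2. Per functional Gab2 allele it was 0 with edgeR, 2 with DESeq2, 1 with limma-voom, 1 with upper-quartile factors, 1 without the 10 genes with the most counts and 0 to 2 when 1 mouse was left out. Other scalings and filters left both counts at 0. Over all genes, the calls per functional allele were 351 with edgeR, 865 with DESeq2, 351 with limma-voom, 363 with upper-quartile factors, 350 without the 10 genes with the most counts, and 137 (without AML KO mouse 1) to 525 (without AML KO mouse 2) when 1 mouse was left out. Over all genes, the calls between AML KO and AML WT went from 278 to 730 with DESeq2, and lay between 40 (without AML WT mouse 2) and 370 (without AML KO mouse 2) when 1 mouse was left out. Between AML HET and AML WT, 3 genes were called by edgeR, 59 by DESeq2, 1 by limma-voom and 5 with only these 2 groups fitted; between AML KO and AML HET, 0, 77, 0 and 3.

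Nothing in the labels ties same-numbered mice of different genotypes together. Deviations of same-numbered AML WT and AML KO mice from their group means had correlations of −0.509, −0.109 and −0.131. For mouse 1 and mouse 2 they were 0.0761 and 0.289 between AML WT and AML HET, and −0.138 and −0.0397 between AML KO and AML HET. With so few mice per group, these values cannot decide whether the samples were paired. With the mouse number as a replicate block, 0 cathepsins passed in each comparison and the smallest adjusted p of a cathepsin between AML KO and AML WT was 0.236; the calls over all genes were 19 in this comparison and 125 per functional allele, against 351 without the block. Ctsk, Ctla2a, Mcpt8, Cd63 and Gab2 did not pass with the block.

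Directions changed only when 1 mouse was left out, for estimates near 0. For AML KO over AML WT, log2 fold changes then ranged from −0.129 to 0.118 for Ctsd, from −0.0897 to 0.154 for Ctsz and from −0.0985 to 0.184 for Cst3. For AML HET over AML WT they ranged from −0.198 to 0.0398 for Ctss and from −0.0611 to 0.179 for Ctsz. For AML KO over AML HET they ranged from −0.333 to 0.0289 for Ctsb, from −0.0877 to 0.163 for Ctsl and from −0.105 to 0.0796 for Ctsz. Per functional allele they ranged from −0.0698 to 0.0770 for Ctsd and from −0.0706 to 0.0439 for Ctsz. The cause was not tested.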
